A study of Mus musculus with 30 samples.

Results

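Transcripts of 9 enzymes that make NADPH in the cytosol, or that carry sugar phosphates through the pentose phosphate pathway, were examined in mouse liver. The genes were G6pdx, Pgls, Pgd, Rpe, Rpia, Tkt, Taldo1, Me1, and Idh1, chosen by name and matched through their Ensembl identifiers to 9 of the 55335 genes in the count table. Livers came from young adult male mice on an albino C57BL/6J background, collected 24 h after a single oral dose of CDDO-Me (30 µmol/kg) or of its vehicle, a mix of DMSO, Cremophor-EL, and PBS. The 6 groups were WT, C151S, and Nrf2-knockout mice with either treatment, at 5 mice and 5 mRNA libraries per group and 30 libraries in all. C151S mice carry a CRISPR-made Keap1 allele in which the cysteine sensor that reacts with CDDO-Me, an electrophilic triterpenoid, is replaced by serine, and both mutant lines are whole-body and homozygous. WT mice were purchased and the mutants were bred in house, so that genotype and source of the animals cannot be told apart.

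NADPH is the electron donor that keeps glutathione and thioredoxin reduced and that drives fatty acid synthesis. In the oxidative branch of the pentose phosphate pathway, glucose 6-phosphate dehydrogenase (G6pdx) and 6-phosphogluconate dehydrogenase (Pgd) each make NADPH, with 6-phosphogluconolactonase (Pgls) between them. The non-oxidative branch interconverts the sugar phosphates through ribulose-phosphate epimerase (Rpe), ribose 5-phosphate isomerase (Rpia), transketolase (Tkt), and transaldolase (Taldo1), and links the pathway to glycolysis. Cytosolic malic enzyme (Me1) and isocitrate dehydrogenase (Idh1) make NADPH outside the pathway. KEAP1 holds the transcription factor NRF2 at a low level, and several of these genes are known NRF2 targets in other settings.

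Promoter windows around the annotated starts of all 9 genes were available from RefSeq (GRCm38.p6), 12 windows in total, each reaching from 250 bases before the start to 50 after it. They were searched on both strands for the letters TGACNNNGC, the core of the antioxidant response element to which NRF2 binds, and 3 of the 12 windows, from 3 genes, held a match. Of all 32851 windows of the same 300 bases, 12.392% held these letters. The 3 matches are shown because their genes were called in at least 1 of the comparisons described here. Each line gives 120 bases on the gene's strand, from 100 bases before the start to 20 after it, with the match in capitals.
G6pdx, chrX:74428861-74428980, minus strand: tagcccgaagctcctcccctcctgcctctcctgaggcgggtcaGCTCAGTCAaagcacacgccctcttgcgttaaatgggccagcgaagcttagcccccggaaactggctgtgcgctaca
Pgd, chr4:149166063-149166182, minus strand: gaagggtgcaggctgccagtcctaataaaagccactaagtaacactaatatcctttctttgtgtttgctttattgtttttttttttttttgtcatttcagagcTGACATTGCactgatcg
Me1, chr9:86695895-86696014, minus strand: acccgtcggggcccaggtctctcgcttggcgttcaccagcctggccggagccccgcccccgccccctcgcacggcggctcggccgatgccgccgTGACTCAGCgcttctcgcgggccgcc
In G6pdx the match lies on the opposite strand, where it reads TGACTGAGC, and begins at position -57. The Pgd match TGACATTGC begins at position 4 of the second of the gene's annotated starts. It thus lies after that start and not before it, and the window at the first start of Pgd held no match. Whether the second start is used in liver was not tested. The Me1 match TGACTCAGC begins at position -6. The Me1 match also contains the AP-1 letters TGACTCA, which 5.202% of all windows held. The windows of Tkt, Taldo1, Rpe, Rpia, Pgls, and Idh1 held no match to the longer pattern, which says only that these letters are not in these windows.

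Between 23667068 and 42073169 counts per library fell on genes, with a median of 33229925, and the 9 genes carried from 66 (G6pdx) to 21690 (Idh1) counts in a library. All 9 passed the filter on low counts in every comparison. Exons of G6pdx and Rpe overlap Ikbkg (1435 to 5489 counts per library) and Kansl1l (231 to 534) on the other strand. The counting was by strand, and reads counted on the wrong strand were not measured. Ikbkg had 2064 to 5489 counts in WT and 1435 to 3972 in mutant libraries. Exons of Pgls overlap Fam129c (3 to 55 counts per library) on the same strand. Nfe2l2, which encodes NRF2, was at 66.1 ± 4.15 CPM (SD, n = 5) in vehicle-treated WT and 35.2 ± 4.54 CPM (SD, n = 5) in vehicle-treated Nrf2-knockout livers, so that its transcript was lower but still counted. Nqo1, a reductase whose transcript NRF2 is known to drive, went from 7.20 ± 2.38 to 64.4 ± 25.0 CPM with CDDO-Me in WT, from 6.70 ± 0.39 to 7.05 ± 1.04 CPM in C151S, and from 1.96 ± 0.52 to 2.55 ± 0.61 CPM in Nrf2-knockout mice (n = 5, errors are SD). By the clock gene Arntl, the libraries also fell into separate sets. In 11 libraries Arntl lay between -1.15 and 0.90 log2 CPM, and in 19 between 2.52 and 4.79. All 10 WT libraries were in the high set, and 5 of the 10 C151S and 6 of the 10 Nrf2-knockout libraries were in the low set. For differences between genotypes, the main values are therefore also given for the high set alone. That set held 5 livers of each WT group, 3 of vehicle-treated C151S mice, and 2 of each of the other mutant groups, so that its mutant means rest on few mice. Arntl and that restriction were chosen after the counts had been seen.

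Corrected for transcript length, the 9 genes spanned a wide range in vehicle-treated WT liver. Idh1 was highest at 475 ± 58.4 TPM (transcript counts scaled by length and by library), above the range of every other member. Me1 (150.5 ± 34.6 TPM) and Taldo1 (114 ± 8.71 TPM) came next with overlapping ranges, followed by Tkt (52.7 ± 4.86 TPM). Pgls (19.8 ± 2.80 TPM), Pgd (19.3 ± 1.82 TPM), and Rpe (17.1 ± 1.60 TPM) could not be ordered against their neighbors. G6pdx, the entry enzyme of the oxidative branch, stood near the bottom at 3.34 ± 0.98 TPM, and its range overlapped that of Rpia at 2.10 ± 0.56 TPM (SD, n = 5 for each gene). In WT mice given CDDO-Me, Pgd (43.8 ± 4.67 TPM) stood clear of Pgls (20.6 ± 2.06 TPM) and Rpe (16.3 ± 2.18 TPM), and G6pdx (7.47 ± 1.24 TPM) stood clear of Rpia (1.59 ± 0.24 TPM). In vehicle-treated Nrf2-knockout livers Me1 ranked below Taldo1 (116.7 ± 6.29 TPM), at 32.8 ± 13.7 TPM, with a range that overlapped that of Tkt (35.7 ± 3.73 TPM).

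**Figure D1:**
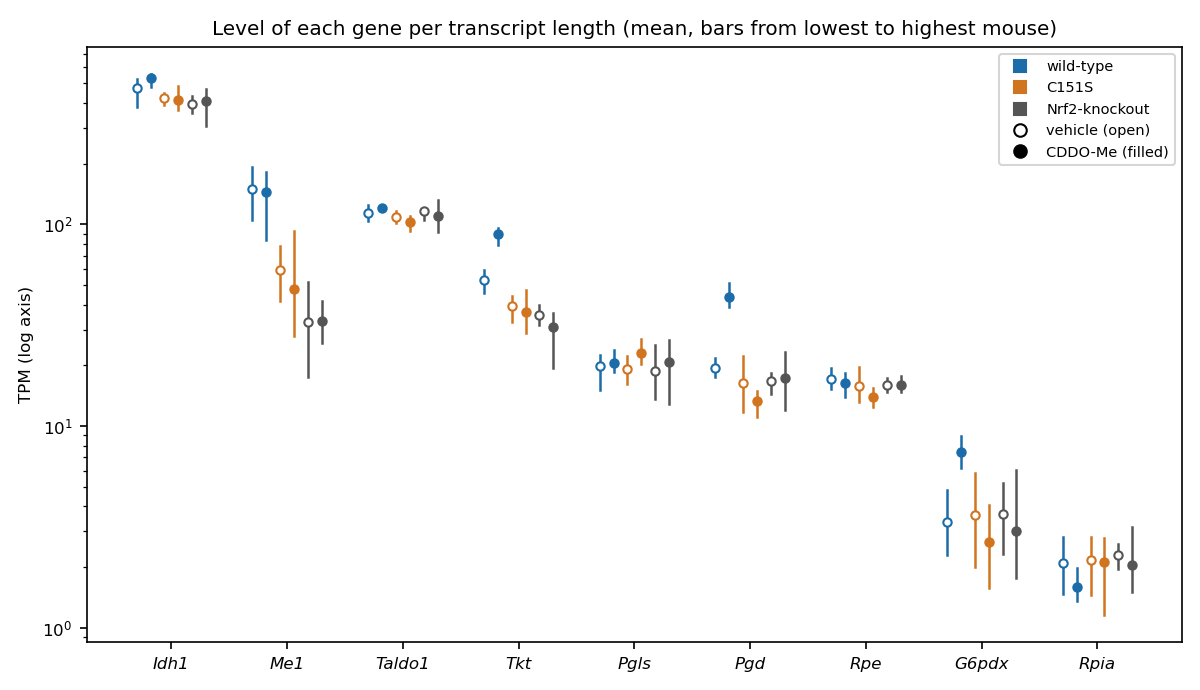
Level of each of the 9 transcripts in each of the 6 groups, in TPM on a log axis, as the mean of 5 mice with bars from the lowest to the highest mouse. Idh1 lies above all other genes in each group, and G6pdx and Rpia lie lowest.

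The first question was which of these enzymes responded to CDDO-Me in WT liver. Transcripts of both NADPH-making steps of the oxidative branch and of transketolase rose, G6pdx and Pgd to more than 2 times their vehicle level and Tkt by a smaller factor. The lactonase between the oxidative steps, the other 3 non-oxidative enzymes, and both NADPH makers outside the pathway did not pass the test. Thus 3 of 9 genes were called, by the size threshold of 0.5 on the log2 scale, in either direction, and a false discovery rate of 0.05 in edgeR's quasi-likelihood test, all of them higher, against 2.75% of the 13697 genes tested (227 higher and 150 lower). The median log2 fold change of the 9 genes was 0.08, beside -0.01 for all genes tested.

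G6pdx (ENSMUSG00000031400.10, chromosome X, 74409483 to 74429194, minus strand, GRCm38) was at 4.0, 4.05, 4.57, 6.03, and 2.90 CPM in the 5 vehicle-treated WT livers. After CDDO-Me it was at 8.45, 9.92, 10.6, 7.83, and 11.4 CPM. The groups did not overlap, and the lowest treated liver lay above the highest vehicle liver. The log2 fold change was 1.15 (SE 0.17, adjusted p = 0.00236, edgeR's quasi-likelihood test), a 2.22-fold rise. These are low levels, since 66 to 370 counts per library lie behind them.

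Pgd (ENSMUSG00000028961.15, chromosome 4, 149149991 to 149166771, minus strand) was at 50.2, 57.0, 50.9, 57.3, and 46.7 CPM in vehicle-treated WT livers. With CDDO-Me the same genotype gave 128, 113, 111, 104, and 138 CPM. Every treated liver was thus well above every vehicle liver. Its log2 fold change (1.17, SE 0.09, adjusted p = 1.28e-05, edgeR's quasi-likelihood test) corresponded to 2.25-fold.

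Tkt (ENSMUSG00000021957.7, chromosome 14, 30548359 to 30574720, plus strand) ran from 154 to 178 CPM in vehicle-treated WT livers, with single values of 175, 154, 155, 178, and 155 CPM. After CDDO-Me the values were 256, 264, 286, 292, and 280 CPM. Again the groups did not overlap. The log2 fold change was 0.75 (SE 0.07, adjusted p = 4.73e-05, edgeR's quasi-likelihood test), or 1.68-fold. In bulk liver, a change in the number of cells of a type cannot be told apart from a change in RNA per cell, and this holds for each comparison described here.

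The other WT members moved little. Taldo1 lay between 103 and 105 CPM in vehicle-treated and between 106 and 115 CPM in treated livers, ranges that did not overlap, but its log2 fold change (0.08, SE 0.05, adjusted p = 0.509, edgeR's quasi-likelihood test) was not called. Me1 gave 262, 186, 260, 302, and 203 CPM with vehicle and 223, 257, 261, 289, and 134 CPM with CDDO-Me, with a log2 fold change of -0.07 and a 95% interval from -0.47 to 0.34. Idh1 gave a log2 fold change of 0.16 (95% interval -0.00 to 0.32), Pgls one of 0.04 (-0.18 to 0.25), and Rpe one of -0.08 (-0.27 to 0.10). For Rpia, at 3.56 ± 0.51 CPM after CDDO-Me and 4.68 ± 0.95 CPM with vehicle (SD, n = 5 each), the log2 fold change of -0.41 had an interval of -0.74 to -0.07 and did not pass after adjustment (adjusted p = 0.19, edgeR's quasi-likelihood test). Of 38 tested markers of 8 liver and blood cell types, 2 were called with CDDO-Me in WT, beside 2.75% of all genes tested. They were the neutrophil gene S100a8 (log2 fold change 1.69) and the erythroid gene Alas2 (-0.60). The neutrophil markers summed to 0.69 to 1.58 CPM with vehicle and 1.05 to 3.14 CPM with CDDO-Me, with Ly6g at 2 counts or fewer in every library, the erythroid markers to 219 to 317 and 180 to 367 CPM, and the hepatocyte markers to 94158 to 116301 and 77421 to 101640 CPM. Their part in the result was not tested.

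**Figure D2:**
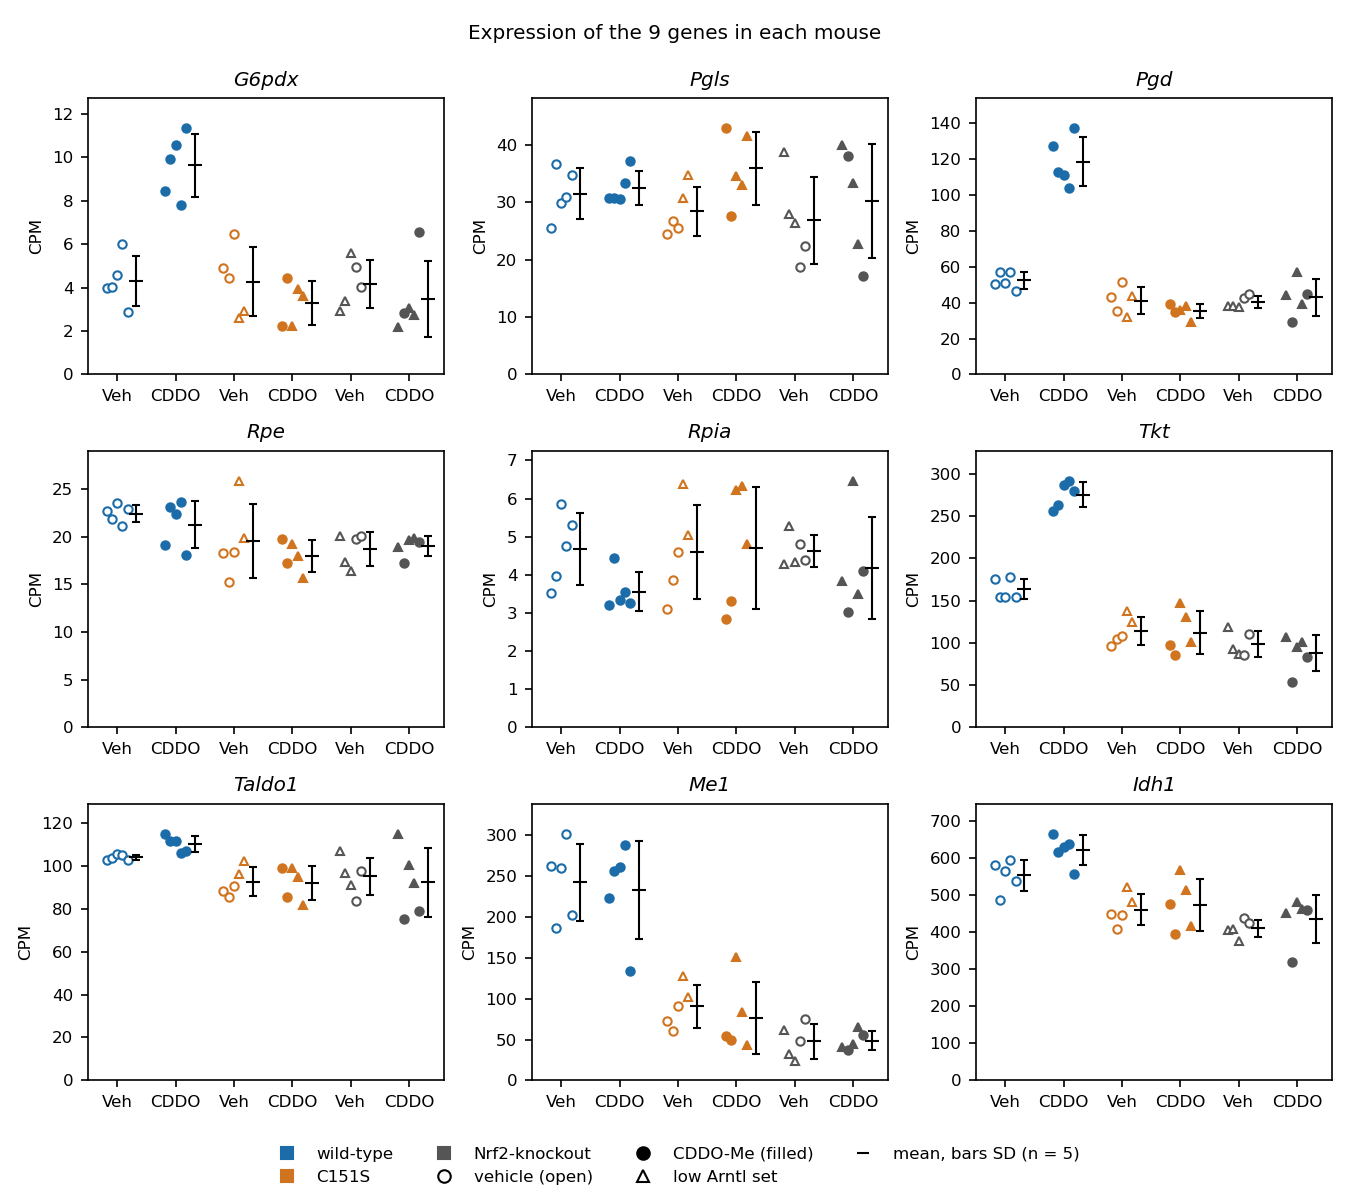
Expression of each of the 9 genes in CPM in the 30 livers, by group, with 1 point per mouse (open for vehicle, filled for CDDO-Me), the mean and SD of 5 mice beside it, and triangles for the 11 libraries of the low-Arntl set. G6pdx, Pgd, and Tkt stand apart in CDDO-Me-treated WT mice, whereas Me1 is high in both WT groups and low in all 4 mutant groups.

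The same dose was then compared with vehicle in mice whose KEAP1 sensor or NRF2 had been altered. No member was called in C151S mice (0 of 9, against 0.092% of 14128 genes), where 1 member had an unadjusted p under 0.05. None was called in Nrf2-knockout mice either (0 of 9, against 0% of 14474 genes), where 0 members had an unadjusted p under 0.05. These counts are from edgeR's quasi-likelihood test. DESeq2 also called 0 members in each genotype, although it called 100 genes in C151S and 52 in Nrf2-knockout mice. At an unadjusted p under 0.05, edgeR's test had 1942 genes in C151S and 1136 in Nrf2-knockout livers.

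For the genes that rose in WT, the point estimates in the mutants lay near or below zero. G6pdx in C151S livers was at 4.91, 4.46, 6.48, 2.60, and 2.93 CPM with vehicle and 2.24, 4.46, 2.23, 3.93, and 3.61 CPM with CDDO-Me. These values overlapped, with a log2 fold change of -0.38 (95% interval -1.02 to 0.25). In Nrf2-knockout livers G6pdx was at 2.92, 3.37, 5.59, 4.95, and 4.04 CPM with vehicle and 2.18, 2.83, 3.04, 2.75, and 6.58 CPM with CDDO-Me, a log2 fold change of -0.28 (95% interval -0.95 to 0.39).

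Pgd in C151S livers was at 43.0, 35.5, 51.3, 32.1, and 43.7 CPM with vehicle and 39.2, 34.6, 36.1, 38.1, and 29.0 CPM with CDDO-Me. The treated livers fell within or below the vehicle range, with a log2 fold change of -0.22 (95% interval -0.52 to 0.07). Nrf2-knockout livers gave 38.0, 38.4, 37.3, 42.7, and 44.8 CPM of Pgd with vehicle and 44.4, 29.3, 57.4, 39.2, and 44.8 CPM with CDDO-Me. The treated values there were more scattered, on both sides of the vehicle range, and the log2 fold change was 0.09 (95% interval -0.25 to 0.42).

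Tkt in C151S livers was at 96.4, 104, 108, 137, and 125 CPM with vehicle and 97.9, 85.1, 147, 130, and 101 CPM with CDDO-Me. In Nrf2-knockout livers it was at 119, 92.6, 87.1, 85.2, and 110 CPM with vehicle and 107, 53.9, 95, 100.4, and 83.0 CPM with CDDO-Me. Both pairs of groups overlapped, with log2 fold changes of -0.03 (95% interval -0.37 to 0.30) and -0.18 (-0.56 to 0.21). The upper bounds for G6pdx, Pgd, and Tkt in either mutant were below the lower bounds in WT, which were 0.77, 0.98, and 0.60. Within C151S, the member with the lowest adjusted p was Pgls, at 28.4 ± 4.29 CPM with vehicle and 35.9 ± 6.36 CPM with CDDO-Me (n = 5, errors are SD). Its log2 fold change was 0.33 (95% interval 0.04 to 0.63, adjusted p = 0.354, edgeR's quasi-likelihood test), smaller in size than that of G6pdx.

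**Figure D3:**
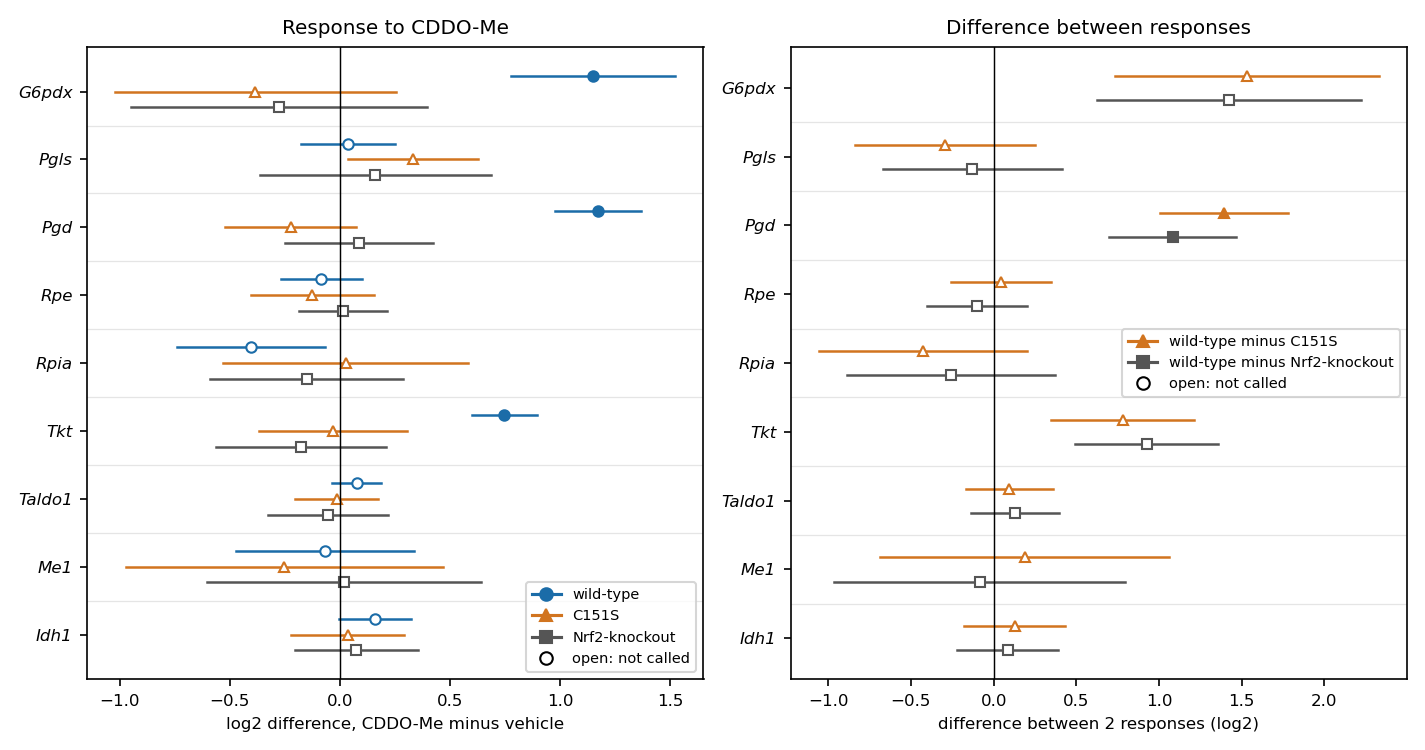
Log2 fold change of CDDO-Me against vehicle for each of the 9 genes in WT, C151S, and Nrf2-knockout mice, with 95% intervals, filled where called and open where not. The 3 filled points are G6pdx (1.15), Pgd (1.17), and Tkt (0.75) in WT.

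Whether the response itself differed between genotypes was tested in 1 fit of all 30 libraries, at a false discovery rate of 0.05 with no threshold on the size. Pgd was the member called, and it was called against both mutants. The WT response of Pgd exceeded the C151S response by a log2 difference of 1.39 (SE 0.19, adjusted p = 9.57e-05, edgeR's quasi-likelihood test) and the Nrf2-knockout response by 1.08 (SE 0.19, adjusted p = 0.00366, same test). That made 1 of 9 members for WT minus C151S, against 0.48% of 15010 genes, and 1 of 9 for WT minus Nrf2-knockout, against 0.266%. In the high-Arntl set alone, with 2 or 3 livers in each mutant group, the Pgd differences were 1.41 (adjusted p = 0.00634, edgeR) and 1.42 (adjusted p = 0.0109). The WT groups enter both differences. For C151S minus Nrf2-knockout 0 of 9 members were called, against 0.0133% of genes, 0 had an unadjusted p under 0.05 in edgeR's test, and DESeq2 called 0.

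G6pdx and Tkt had estimates in the same direction that did not pass in this fit. The WT response of G6pdx exceeded that of C151S by 1.53 (95% interval 0.73 to 2.33, adjusted p = 0.0844, edgeR's quasi-likelihood test) and that of Nrf2-knockout mice by 1.42 (0.63 to 2.22, adjusted p = 0.168). For Tkt the differences were 0.78 (0.35 to 1.21, adjusted p = 0.129, edgeR's quasi-likelihood test) and 0.92 (0.49 to 1.36, adjusted p = 0.055). These Tkt calls depend on the choice of fit. With the Arntl set as a covariate, Tkt passed against both mutants, at 0.85 (adjusted p = 0.00908, edgeR) and 0.95 (adjusted p = 0.00405), and in the high set alone it passed against the Nrf2-knockout at 1.27 (adjusted p = 0.00907) but not against C151S at 0.92 (adjusted p = 0.0572). Without replicate 5 of the CDDO-Me-treated Nrf2-knockout mice, the mouse with 6.58 CPM of G6pdx, G6pdx passed against the Nrf2-knockout at 1.79 (adjusted p = 0.0154, edgeR). Of 39 other settings this was the only 1 under which G6pdx passed against the Nrf2-knockout. It leaves out the highest G6pdx value of its group. In the high set alone G6pdx passed against neither mutant, at 1.10 for the Nrf2-knockout (adjusted p = 0.636, edgeR) and 1.81 for C151S (adjusted p = 0.115).

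The mutants were next compared with WT mice in the absence of drug. Me1 was far lower in both mutants and Tkt was lower by a smaller step, while the oxidative-branch genes that responded to CDDO-Me were not called. In C151S livers 2 of 9 members were called, both lower, against 4.84% of 13946 genes. Nrf2-knockout livers also had 2 of 9 called, both lower, against 10.4% of 14030 genes. The vehicle-treated WT group serves as the reference in both comparisons and in the WT response to CDDO-Me.

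Me1 (ENSMUSG00000032418.15, chromosome 9, 86581371 to 86695953, minus strand) makes NADPH by converting malate to pyruvate. Against 186 to 302 CPM in vehicle-treated WT livers, C151S livers had 72.6, 60.3, 91.2, 128, and 102 CPM and Nrf2-knockout livers 61.4, 31.7, 23.3, 47.9, and 75.0 CPM. Neither mutant overlapped WT, while the mutants overlapped each other. The log2 fold change against WT was -1.41 in C151S (SE 0.19, adjusted p = 0.00241, edgeR's quasi-likelihood test) and -2.33 in Nrf2-knockout mice (SE 0.28, adjusted p = 0.000655, same test), that is to 0.377 and 0.199 of the WT level. In the high-Arntl set alone these were -1.67 (adjusted p = 0.000578, edgeR) and -1.95 (adjusted p = 0.00462). Me1 has a near-identical processed pseudogene, Gm7049 (98.4% identical over 1716 aligned bases), and reads that matched both equally were not counted. Gm7049 had 24 to 84 counts per WT library and 6 to 34 per mutant library, beside 1072 to 9889 for Me1.

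Tkt in vehicle-treated C151S (96.4 to 137 CPM) and Nrf2-knockout livers (85.2 to 119 CPM) lay below every vehicle-treated WT liver (154 to 178 CPM). The log2 fold changes were -0.50 (SE 0.09, adjusted p = 0.00948, edgeR's quasi-likelihood test) and -0.71 (SE 0.10, adjusted p = 0.0015, same test). The C151S value sits at the size threshold of 0.5. It fell short of the call when any of vehicle-treated C151S replicates 1, 2, and 3 or vehicle-treated WT replicates 1 and 4 was left out, with values from -0.49 to -0.45 and adjusted p values of 0.0222 to 0.0335 in edgeR's test. In the high set alone the values were -0.64 (adjusted p = 0.00107, edgeR) and -0.71 (adjusted p = 0.0141).

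Pgd and Idh1 were also lower in vehicle-treated Nrf2-knockout livers, by less than the size threshold. Pgd at 40.2 ± 3.32 CPM, against 52.4 ± 4.58 CPM in WT (SD, n = 5 each), gave -0.36 (adjusted p = 0.0171, edgeR's quasi-likelihood test). Idh1, which makes NADPH from isocitrate, gave 581, 485, 564, 593, and 538 CPM in WT and 404, 407, 377, 438, and 425 CPM in Nrf2-knockout livers, without overlap and with a log2 fold change (-0.41, SE 0.08, adjusted p = 0.00889, edgeR's quasi-likelihood test). In C151S livers Idh1 was at 447, 407, 445, 520, and 481 CPM, which overlapped WT (log2 fold change -0.25, 95% interval -0.43 to -0.07, adjusted p = 0.0764, edgeR). In the high-Arntl set alone neither gene passed the false discovery rate in Nrf2-knockout livers, with Pgd at -0.23 (adjusted p = 0.208, edgeR) and Idh1 at -0.32 (adjusted p = 0.0972), whereas Idh1 in C151S livers passed it at -0.32 (adjusted p = 0.0176), under the size threshold. G6pdx was close to equal across the vehicle groups, at 4.31 ± 1.14, 4.28 ± 1.58, and 4.17 ± 1.10 CPM in WT, C151S, and Nrf2-knockout mice (n = 5, errors are SD), with 95% intervals against WT from -0.57 to 0.59 and from -0.52 to 0.47. Taldo1, Rpe, Rpia, and Pgls were not called in either mutant, with log2 fold changes between -0.24 and -0.00 over all libraries. In the high-Arntl set alone Pgls was called lower in Nrf2-knockout livers (-0.59, adjusted p = 0.0477, edgeR), and in C151S livers Rpe (-0.35, adjusted p = 0.0136) and Taldo1 (-0.21, adjusted p = 0.0254) passed the false discovery rate under the size threshold.

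Markers of other cells moved with the Nrf2-knockout genotype. In vehicle-treated mice, 9 of 38 tested markers were called against WT, beside 10.4% of all genes tested. Of these markers, Stab2, Pecam1, Lyve1, Col1a1, S100a8, and S100a9 were higher and Hba-a1, Hbb-bs, and Hbb-bt lower. The summed markers of sinusoidal endothelium ranged from 144 to 171 CPM in WT and from 182 to 285 CPM in Nrf2-knockout livers, those of stellate cells from 162 to 227 and from 149.7 to 454 CPM, those of neutrophils from 0.69 to 1.58 and from 0.86 to 7.20 CPM, and those of erythroid cells from 219 to 317 and from 136 to 212 CPM. The hepatocyte markers summed to 94158 to 116301 CPM in WT and 110702 to 126128 CPM in Nrf2-knockout livers. In C151S livers 2 of 38 were called, a share near that of all genes tested (4.84%). They were the stellate-cell gene Rgs5 (1.06) and the bile-duct gene Spp1 (-0.83), with sums of 179.5 to 334 CPM and 17.9 to 27.2 CPM against 162 to 227 and 25.2 to 54.7 CPM in WT. Their part in the results on Me1 and Tkt was not tested.

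With CDDO-Me given to all genotypes, the difference between mutant and WT livers covered the genes lower at baseline together with those that responded in WT. G6pdx, Pgd, Tkt, and Me1 were called lower in C151S (4 of 9, against 5% of 13844 genes) and in Nrf2-knockout livers (4 of 9, against 9.44% of 13935 genes). The CDDO-Me-treated WT group is the reference for both. G6pdx fell short of treated WT by log2 values of -1.52 in C151S (SE 0.21, adjusted p = 0.00173, edgeR's quasi-likelihood test) and -1.45 in Nrf2-knockout mice (SE 0.27, adjusted p = 0.00549, same test). The corresponding values for Pgd were -1.72 (SE 0.11, adjusted p = 1.04e-05, edgeR's quasi-likelihood test) and -1.44 (SE 0.16, adjusted p = 0.000139). No treated mutant liver reached the lowest treated WT liver for either gene.

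For Tkt the treated mutants lay -1.28 (SE 0.14, adjusted p = 0.000276, edgeR's quasi-likelihood test) and -1.63 (SE 0.16, adjusted p = 5.89e-05) from treated WT, again without overlap. Me1 after CDDO-Me was at 54.3, 49.4, 150.6, 84.1, and 43.6 CPM in C151S and 41.2, 37.6, 44.2, 65.0, and 55.5 CPM in Nrf2-knockout livers. Replicate 3 of the C151S mice, at 150.6 CPM, lay above the lowest treated WT liver at 134 CPM, whereas the Nrf2-knockout livers did not overlap WT. The log2 fold changes of Me1 were -1.59 (SE 0.33, adjusted p = 0.0179, edgeR's quasi-likelihood test) and -2.24 (SE 0.22, adjusted p = 4.95e-05).

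Idh1 was also lower in treated Nrf2-knockout than in treated WT livers. Its values were 452, 320, 480, 462, and 459 CPM against 665, 616, 629, 636, and 555 CPM in WT, without overlap. The log2 fold change (-0.49, SE 0.13, adjusted p = 0.0243, edgeR's quasi-likelihood test) was just under the size threshold. In the high-Arntl set alone, the 4 genes were still called in treated C151S livers (G6pdx at adjusted p = 0.0302, edgeR). There G6pdx was no longer called in the Nrf2-knockout comparison (log2 fold change -1.0, adjusted p = 0.0857, edgeR), a set with 2 Nrf2-knockout livers, while Pgd, Tkt, and Me1 were at -1.65, -1.98, and -2.29. Idh1 was at -0.64 there, which did not pass the false discovery rate (adjusted p = 0.0555, edgeR). Of 38 tested markers, 2 were called in treated C151S livers (Tat, 1.06, and Marco, -1.13) and 3 in treated Nrf2-knockout livers (Pecam1, 0.57, Rgs5, 1.15, and Marco, -2.14). Both counts were near the shares of all genes tested that were called, 5% and 9.44%. The hepatocyte markers, with Tat, summed to 77421 to 101640 CPM in treated WT, 67164 to 152874 CPM in treated C151S, and 76008 to 112068 CPM in treated Nrf2-knockout livers. In treated WT and Nrf2-knockout livers the endothelial markers summed to 136 to 168 and 135 to 260 CPM, and the stellate-cell markers to 150.1 to 208 and 127 to 460 CPM. The Kupffer-cell markers, Marco among them, summed to 163 to 254 CPM in treated WT, 154 to 340 CPM in treated C151S, and 120.2 to 296 CPM in treated Nrf2-knockout livers. Their part in these results was not tested.

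**Figure D4:**
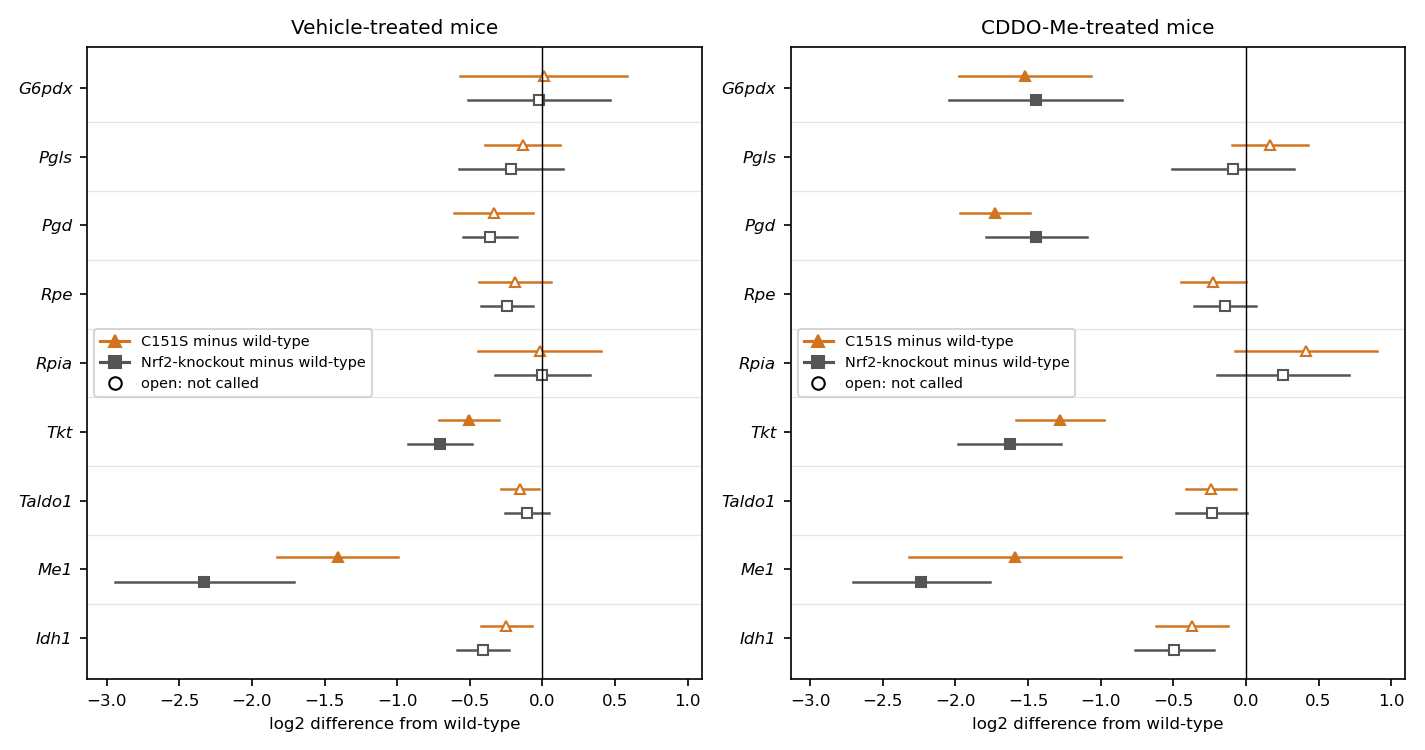
Log2 fold change of C151S and Nrf2-knockout against WT livers for each of the 9 genes, with vehicle and with CDDO-Me, with 95% intervals, filled where called and open where not. Me1 and Tkt are filled in all 4 comparisons, and G6pdx and Pgd are filled with CDDO-Me alone.

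The mutants were also compared with each other. With vehicle, 0 of 9 members were called in Nrf2-knockout against C151S livers, against 0.349% of 14323 genes, and with CDDO-Me 0 of 9, against 0.162% of 14186 genes. In edgeR's test 1 member had an unadjusted p under 0.05 with vehicle and 0 with CDDO-Me, and DESeq2 called 0 members in both. Me1 was lower in the Nrf2-knockout with a log2 difference of -0.92 in vehicle-treated mice, but its interval reached from -1.57 to -0.27 and the adjusted p was 0.302 (edgeR's quasi-likelihood test). In the high-Arntl set alone this Me1 difference was -0.29 (adjusted p = 0.712, edgeR), and in the low set alone -1.58 (adjusted p = 0.141). Those sets held 3 and 2 vehicle-treated C151S livers, and 2 and 3 of the Nrf2-knockout. After CDDO-Me the Me1 difference over all libraries was -0.65 (95% interval -1.34 to 0.04). It was -0.16 in the high set and -0.89 in the low set. Whether the difference depends on the Arntl set was not tested.

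Across the 6 group means, the spread was widest for Me1, with a ratio of 5.07 between the highest group (WT with vehicle) and the lowest (Nrf2-knockout with vehicle). Ratios of 3.35 for Pgd, 3.13 for Tkt, and 2.93 for G6pdx followed, with CDDO-Me-treated WT as the highest group for all 3. Idh1 had a ratio of 1.51. The other non-oxidative enzymes and the lactonase stayed within 1.34 (Pgls), 1.32 (Rpia), 1.25 (Rpe), and 1.2 (Taldo1). The 2 WT levels of Me1 were thus the highest of its 6 groups, and Tkt showed both patterns, a higher level in WT with vehicle and a rise with CDDO-Me. Over the 30 libraries Tkt correlated with Idh1 at r = 0.90 and Pgd with Tkt at r = 0.85, and after group means were removed these became 0.78 and 0.29. These correlations describe libraries that share groups and liver RNA, and carry no test.

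Genes around the pathway were read from lists of related enzymes. Of 10 tested genes in a list of 13 other pentose phosphate genes, which included H6pd and Prps1, 0 were called with CDDO-Me in WT by edgeR (4 had an unadjusted p under 0.05), with a median log2 fold change of 0.14. Of 12 genes that move glucose 6-phosphate toward or away from glycolysis, 0 were called in WT (3 unadjusted), with log2 fold changes from -0.97 to 0.26. Under the other settings tried, 0 to 1 of the former list and 0 to 2 of the latter were called. Of 12 tested genes of other NADPH and NADP supply, mostly mitochondrial or folate enzymes, only Nnt was called (log2 fold change 1.09, SE 0.22, adjusted p = 0.0141, edgeR). Nnt, the mitochondrial transhydrogenase, had 10 to 16 counts with vehicle and 17 to 39 with CDDO-Me, and C57BL/6J mice are known to carry a deletion within this gene. The symbol Nnt matched 2 rows of the count table. All Nnt values here are from the first (ENSMUSG00000025453.18), and the other row was not examined. Without replicate 3 of the vehicle-treated WT mice Nnt was no longer called (1.03, adjusted p = 0.0505, edgeR), nor was it under the replicate block (adjusted p = 0.0598). Between 0 and 2 genes of this list were called under the other settings tried. In C151S and Nrf2-knockout mice, 0 genes of these 3 lists were called with CDDO-Me.

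Enzymes that spend NADPH on reduction also responded in WT. Of 12 tested reductases, 7 rose with CDDO-Me in WT, beside 2.75% of all genes tested that were called. The median log2 fold change was 0.98 over the 12, and no test compared this list with the 9 members. The list was chosen with earlier results of these data known, and it holds Nqo1 and Cbr3, which the study names among genes upregulated in WT. Cbr3 and Cbr1, carbonyl reductases, changed by 5.24 (SE 0.31, edgeR) and 2.08 (SE 0.18), Blvrb, a biliverdin and flavin reductase, by 1.29 (SE 0.08), and Txnrd1, cytosolic thioredoxin reductase, by 1.11 (SE 0.09). Gsr, the glutathione reductase that draws on the same NADPH, changed by 0.85 (SE 0.11) and, like Akr1b8 at 1.82 (SE 0.16), was named after its values were seen. In C151S and Nrf2-knockout mice 0 of 12 were called with CDDO-Me by edgeR, with medians of 0.12 and 0.03 and with 0 and 4 at an unadjusted p under 0.05. In response, 6 of 12 differed between WT and each mutant, beside 0.48% (C151S) and 0.266% (Nrf2-knockout) of all genes tested. Against WT, 1 of 12 was lower in C151S and 4 of 12 in Nrf2-knockout livers with vehicle, and 7 of 12 in each with CDDO-Me. The shares of all genes called, in either direction, were 4.84% and 10.4% with vehicle and 5% and 9.44% with CDDO-Me.

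Fatty acid synthesis is a main use of NADPH in liver. Of 10 lipogenesis genes, 3 fell with CDDO-Me in WT, beside 2.75% of all genes tested that were called. They were Mlxipl (-0.67, SE 0.08, adjusted p = 0.000535, edgeR), which encodes the glucose-responsive factor ChREBP, Scd1 (-1.11, SE 0.18, adjusted p = 0.00356), the stearoyl-CoA desaturase, and Thrsp (-1.27, SE 0.25, adjusted p = 0.0124). The median of the 10 was -0.69, and between 1 and 7 of them were called under the other settings tried. In 1 fit of all 30 libraries Scd1 (adjusted p = 0.235, edgeR) and Thrsp (adjusted p = 0.562) were no longer called, and under the replicate block Thrsp was not called (adjusted p = 0.0784). In C151S and Nrf2-knockout mice 0 of 10 were called with CDDO-Me by edgeR, with 2 at an unadjusted p under 0.05 in each, and 0 of 10 differed in response between genotypes. The log2 fold change of Scd1 was -1.34 in C151S (95% interval -2.32 to -0.36) and -0.86 in Nrf2-knockout mice (-1.70 to -0.02), and the medians of the 10 genes were -0.19 and -0.34. The median over mice of the summed CPM of the 10 genes was 13760 with vehicle and 6250 with CDDO-Me in WT, 12745 and 5675 in C151S, and 10060 and 5981 in Nrf2-knockout livers.

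**Figure D5:**
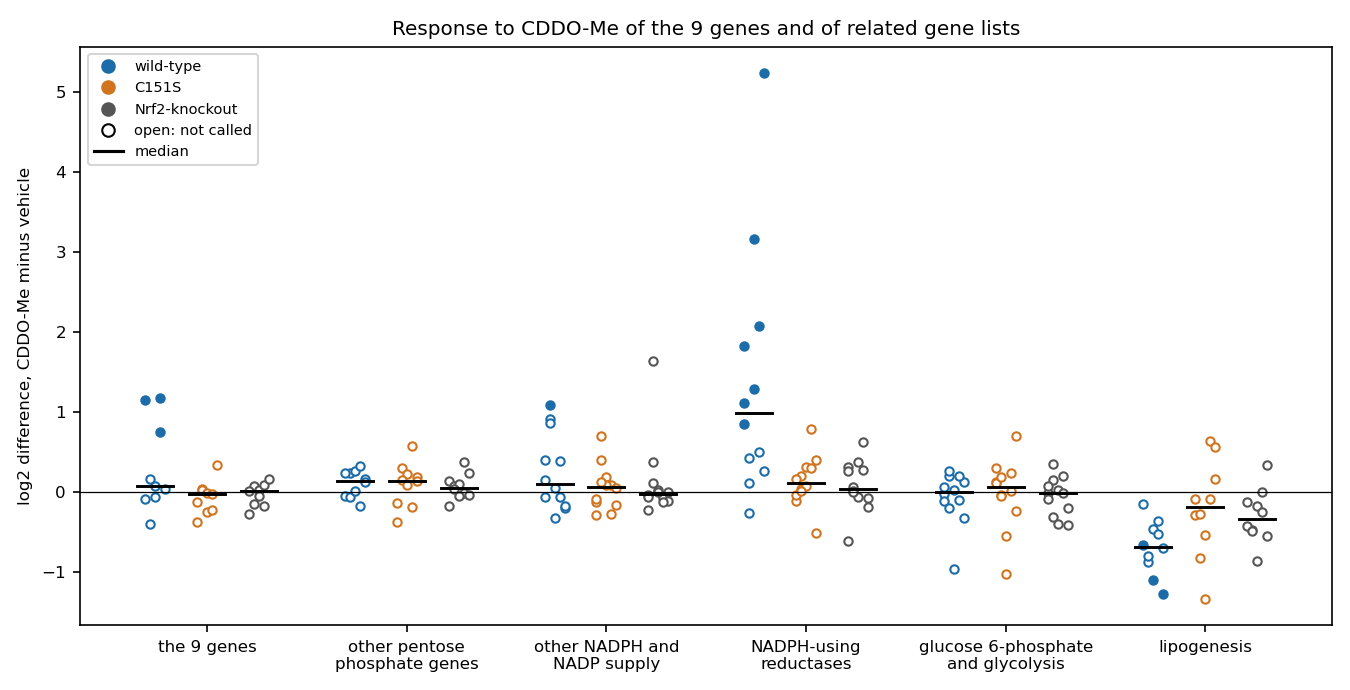
Log2 fold change of CDDO-Me against vehicle in WT, C151S, and Nrf2-knockout mice for the 9 genes and each gene of the lists, with 1 point per gene, filled where called, and a black line at the list's median. In WT the reductases have a median of 0.98 and the lipogenesis genes one of -0.69.

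Genes whose log2 CPM followed a member most closely over the 30 libraries were listed for each one, with Pearson's r and no test. For G6pdx they were Epb41l1 (0.85), Abcc4 (0.84), and Pkm (0.84), and for Pgd Srxn1 (0.92), Ces1h (0.91), and Pacsin2 (0.91). Tkt ran closest to Blvrb, C2cd2, and Pgrmc1, each at 0.95. Me1 ran with Abcg2 (0.94), Snhg11 (0.93), and Rmdn2 (0.93), and Idh1 with Cyb5b (0.92), Snhg11 (0.91), and BC005537 (0.91). Taldo1 ran with Slc25a1 (0.89), Pold2 (0.86), and Shmt2 (0.85), Rpia with Rrm2 (0.86), Fasn (0.79), and Iffo2 (0.77), Rpe with Polr3k (0.83), Tmed7 (0.83), and Tm9sf3 (0.80), and Pgls with Taf10 (0.96), Stard10 (0.95), and Aurkaip1 (0.95). The libraries share groups and depth, so that these values describe likeness in this set alone.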

How the data were processed

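RNA-seq was run on poly(A)-selected, stranded, paired-end libraries from 30 livers (6 groups of 5 mice). The authors checked read quality with fastp, removing no reads or bases, aligned the reads with STAR 2.7.7 to mm10, and deposited raw strand-specific counts per gene for uniquely placed reads (GENCODE M23), without normalization. Reads in STAR's 4 summary categories (19.4% to 34.1%) were dropped. Symbols and exon lengths came from GRCm38 annotation (GENCODE M21), and TPM used the joined length of all exons of a gene. Counts were analyzed in R 4.3.3 with edgeR 4.0.16, using filterByExpr, the trimmed mean of M values, and the quasi-likelihood F-test in its earlier form, on the 10 libraries of each comparison, with Benjamini-Hochberg adjustment over all genes tested. Differences between responses used all 30. The study's covariate, the date of isolation, was not used here. Alternatives were DESeq2 1.42.0, other scaling, filters, and fits, each mouse left out, and the replicate number as a block. The fits were also tested on simulated data. The 9 genes and all lists were chosen with earlier results of these data known. Named genes were the 9 members, Nfe2l2, Keap1, Nqo1, and Arntl, at most 4 called genes per list by lowest p in the WT treatment comparison, and the 3 genes most like each member. Keap1 ranged from 45.0 to 68.6 CPM in group means. Replicate libraries differed beyond sampling noise (chi-square per degree of freedom at least 16.6). Intervals are 95% confidence intervals of the log2 difference. Their width comes from the spread between mice, but they do not give the range of single mice. The floor of 3 counts per library was a fixed setting and was not derived from the data.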

Additional observations from a re-analysis of the deposited data

Results flagged for a closer look

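Single livers far from the other 4 of their group were found in 8 of 138 groups of values, and chance alone picks out about 1 in 20. Among the 9 members, 3 of 54 groups held such a liver. G6pdx was at 6.58 CPM in replicate 5 of the CDDO-Me-treated Nrf2-knockout mice, with the others between 2.18 and 3.04 CPM. Rpia was at 4.43 CPM in replicate 2 of the CDDO-Me-treated WT mice (others 3.21 to 3.55 CPM). Idh1 was at 320 CPM in replicate 2 of the CDDO-Me-treated Nrf2-knockout mice (others 452 to 480 CPM).

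Among the other named genes, Nnt was at 1.04 CPM in replicate 4 of the CDDO-Me-treated Nrf2-knockout mice (others 0.44 to 0.53 CPM), and Nqo1 was at 109 CPM in replicate 5 of the CDDO-Me-treated WT mice (others 48.3 to 57.1 CPM). Mlxipl was at 489 CPM in replicate 5 (others 411 to 425 CPM) and Arntl at 27.7 CPM in replicate 2 (others 9.53 to 13.3 CPM) of the vehicle-treated WT mice. Srxn1 was at 43.4 CPM in replicate 5 of the vehicle-treated C151S mice (others 35.7 to 37.7 CPM).

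The response to CDDO-Me differed between genotypes for Pgd, by 1.39 on the log2 scale for WT minus C151S (adjusted p = 9.57e-05, edgeR's quasi-likelihood test) and by 1.08 for WT minus Nrf2-knockout (adjusted p = 0.00366). In the same test Cbr3 differed by 4.84 (adjusted p = 1.82e-08) and 5.33 (adjusted p = 6.71e-09), Nqo1 by 3.09 (adjusted p = 4.65e-07) and 2.78 (adjusted p = 8.44e-06), and Cbr1 by 1.77 (adjusted p = 0.000176) and 1.80 (adjusted p = 0.000206). Srxn1, which repairs oxidized peroxiredoxins, differed by 2.29 (adjusted p = 1.82e-08, edgeR) and 2.04 (adjusted p = 1.45e-07), Txnrd1 by 0.95 (adjusted p = 0.0013) and 0.85 (adjusted p = 0.00799), and Gclm, a subunit of the enzyme that begins glutathione synthesis, by 0.75 (adjusted p = 0.0013) and 0.58 (adjusted p = 0.0323). Blvrb differed by 1.35 for WT minus Nrf2-knockout (adjusted p = 0.0144, edgeR). In each case the WT response was the higher.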

How the results depend on the processing

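Of 2655 values of the 9 members under other settings, 2608 kept their side of the thresholds and, where called, their direction, 38 passed that had not, 9 no longer passed, and 0 called values changed direction. In 138 cases a value that was not called changed sign. For C151S against WT with vehicle, 1 member (Me1) in place of 2 was called under DESeq2, upper-quartile normalization, and a minimum of 10 counts in every library, and 1 to 2 with single mice left out, Tkt being the gene lost. Those 3 settings called 1006, 712, and 617 of all genes. For Nrf2-knockout against WT with vehicle, 4 members were called with no threshold on the fold change (Pgd, Tkt, Me1, and Idh1), beside 2307 of 14030 genes. In the high-Arntl set alone 3 were called there (Pgls, Tkt, and Me1), beside 1168 of 14453 genes. For the response difference of WT minus C151S, DESeq2 called 3 members (G6pdx, Pgd, and Tkt), the Arntl covariate 2, and single mice left out 1 to 2. Of 15010 genes, DESeq2 called 113 and the Arntl covariate 95. For WT minus Nrf2-knockout, 2 (Pgd and Tkt) were called under DESeq2, upper-quartile normalization, the edgeR 4 fit, the 10-count minimum, the Arntl covariate, and the high-Arntl set, and 1 to 2 with single mice left out. Over all genes these settings called from 22 (high-Arntl set) to 85 (DESeq2). Idh1 in treated Nrf2-knockout against treated WT livers was called under 9 of 19 other settings. Among them were 1 fit of all 30 libraries (-0.51, adjusted p = 0.00119, edgeR), the replicate block (-0.51, adjusted p = 0.0476), and no filter (-0.50, adjusted p = 0.0299). With single mice left out its value ran from -0.53 to -0.40, with adjusted p values up to 0.0618 in edgeR's test. The causes were not tested.

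Nothing in the labels says that the replicate numbers pair the mice. No comparison had a correlation over 0.1 for all 5 same-numbered pairs (means from -0.19 to 0.18), which cannot exclude pairing of some mice. The mean was 0.18 for CDDO-Me against vehicle in Nrf2-knockout mice (other pairs -0.04). It was 0.15 for C151S against WT with CDDO-Me (others -0.04) and -0.19 for Nrf2-knockout against C151S with vehicle (others 0.05). With the replicate block, 3, 0, and 0 members were called for CDDO-Me in WT, C151S, and Nrf2-knockout mice, 2, 2, 4, and 5 for C151S and Nrf2-knockout against WT with vehicle and then CDDO-Me, 0 and 0 between the mutants, and 1, 1, and 0 for the response differences. In the same order, the block called 299, 2, and 0 of all genes, then 567, 1207, 827, and 1245, then 9 and 8, and then 52, 23, and 1.

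Over all genes, the counts of calls are given with their range over settings that keep every mouse, and then with single mice left out. The WT response had 377 (147 in 1 fit of all 30 libraries to 580 with no threshold on the fold change, and 265 to 493), C151S 13 (0 to 100, and 0 to 22), and Nrf2-knockout 0 (0 to 52, and 0 to 0). Against WT with vehicle C151S had 675 (382 to 2030, and 390 to 1168) and Nrf2-knockout 1462 (1168 to 2307, and 949 to 2050), and with CDDO-Me 692 (294 to 1137, and 379 to 1303) and 1315 (1087 to 1752, and 975 to 1487). Between the mutants there were 50 (4 to 180, and 29 to 54) and 23 (0 to 126, and 11 to 38), and for response differences 72 (40 to 113, and 50 to 97), 40 (22 to 85, and 28 to 53), and 2 (0 to 3, and 1 to 3). Upper-quartile scaling moved the split of higher to lower calls with vehicle from 883 and 579 to 1307 and 426 in Nrf2-knockout and from 361 and 314 to 460 and 252 in C151S mice. The Arntl settings were chosen after the counts had been seen. G6pdx and Rpia, at 66 to 370 and 80 to 270 counts per library, are the members for which depth limits precision most.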

Other observations

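Neighbors of the pathway differed between genotypes in a few places, each named after its values were seen. Counts against WT follow for the other pentose phosphate, glucose 6-phosphate, and supply lists (13, 12, and 13 genes). With vehicle, 1, 1, and 0 genes were called in C151S and 1, 2, and 1 in Nrf2-knockout livers. With CDDO-Me, 0, 1, and 1 were called in C151S and 1, 1, and 1 in Nrf2-knockout livers. Of all genes tested, 4.84% and 10.4% were called with vehicle and 5% and 9.44% with CDDO-Me. No test compared these counts with those shares. Pgm2, a phosphopentomutase that feeds ribose phosphate into the pathway, was higher in Nrf2-knockout than in WT livers with vehicle (log2 fold change 0.59, edgeR) and with CDDO-Me (0.75). Prps2, which makes the ribose donor of nucleotide synthesis, was higher in vehicle-treated C151S livers (0.54). Fbp1, a gluconeogenic phosphatase, was higher in C151S livers with vehicle (0.53) and CDDO-Me (0.69) and in CDDO-Me-treated Nrf2-knockout livers (0.79), and Hk1 was higher (0.80) and G6pc, the phosphatase that releases glucose, lower (-1.59) in vehicle-treated Nrf2-knockout livers. Aldh1l1, a folate enzyme that makes NADPH, was lower than in WT after CDDO-Me in C151S (-0.59) and Nrf2-knockout livers (-0.92), and Me2, the mitochondrial malic enzyme, was higher in vehicle-treated Nrf2-knockout livers (0.67). The number of supply genes called between treated Nrf2-knockout and WT livers moved from 1 to as many as 5 under other settings. The supply count fell to 0 under some settings in vehicle-treated Nrf2-knockout and treated C151S livers. So did the glucose 6-phosphate count in vehicle-treated C151S and treated Nrf2-knockout livers, and the pentose phosphate count in vehicle-treated C151S livers.

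Within groups, after the group means were removed, Tkt correlated with Taldo1 at r = 0.73, Me1 with Idh1 at 0.71, and Rpe with Me1 at 0.70 over 30 libraries. Tkt and Rpia went with Arntl at -0.61 and -0.60 on the same scale. In CDDO-Me-treated C151S mice Rpia was at 2.85 to 3.30 CPM in the 2 high-Arntl and at 4.80 to 6.33 CPM in the 3 low-Arntl libraries, and Tkt at 85.1 to 97.9 and 100.8 to 147 CPM. These are values for a few libraries each, with no test.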
